A study of Homo sapiens with 48 samples.

Results

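The comparison described here asked which transcripts differ between cells that carry wild-type UPF1 and cells that carry only a protein tag, once both have received the siRNA against UPF1. It was fixed by the labels: the 3 libraries of the line with CLIP-tagged wild-type UPF1 (WT) against the 3 libraries of cells that have the CLIP tag by itself (CLIP), all with siUPF1, so 6 of the 48 libraries of the series. The cells were Flp-In 293 T-REx, a human embryonic kidney line with a site for inserting a transgene, and each line expressed its transgene stably. The series held 8 lines (CLIP, WT and, as mutants of UPF1, LECY, F192E, I757R, E797R, FE-ER and IR-ER). Each was reverse-transfected with siUPF1 or with a control siRNA without target (siNT), both at 40 nM, and harvested after 72 h in 3 biological replicates, from which total RNA was sequenced after removal of ribosomal RNA. The siRNA was the same on both sides. An effect of the siRNA that does not pass through UPF1 would cancel only if equal in both lines, which was not tested. Whether a line was a single clone, how the transgene was induced and whether it escapes the siRNA by design is not given in the sources used here.

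UPF1 is an RNA helicase at the centre of nonsense-mediated mRNA decay (NMD), the pathway that degrades mRNAs on which translation stops early. It acts with UPF2 and UPF3, which link it to the exon junction complex left behind by splicing, and with the kinase SMG1, whose phosphorylation of UPF1 recruits decay factors such as SMG5 and SMG6. Besides faulty mRNAs, NMD limits many normal ones, among them mRNAs of stress genes with short upstream reading frames, spliced noncoding hosts of snoRNAs, isoforms of splicing factors with poison exons, and mRNAs of NMD factors themselves.

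The 6 libraries held 6580995 to 10909098 expected counts (all 48 libraries: 6016999 to 14551820). Mitochondrially encoded transcripts took 2.72% to 3.47% of the counts in WT and 2.19% to 2.74% in CLIP with siUPF1. The markers expected of 293 cells had summed levels of 1441 to 1765 CPM (counts divided by the library's total in units of 1e+06 counts) in WT and 1371 to 1692 CPM in CLIP. All 10 of them were at a mean of at least 1 CPM in WT, and 8 were in CLIP. The means of NES and NEFM in CLIP were 0.958 and 0.595 CPM. Markers of blood cells summed to under 1 CPM in every group, with CD3E at 0. Of the 7 neural markers, STMN2 was at 0 in both groups, and the sum was 22.0 to 32.8 CPM in WT against 42.6 to 49.1 CPM in CLIP. Of the 7 fibroblast markers, COL1A2 and DCN were at 0 in both groups, and the sum was 8.21 to 12.3 CPM in WT against 4.03 to 6.18 CPM in CLIP. Epithelial markers summed to 139.8 to 155 CPM in WT and 123 to 140.1 CPM in CLIP. In bulk RNA, fewer cells of a type and less RNA per cell cannot be told apart.

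UPF1 itself, on chromosome 19 from 18831938 to 18868236 on the plus strand (hg38), was at 20.4, 21.3 and 19.5 CPM in the 3 CLIP libraries with siUPF1. In the 3 WT libraries with siUPF1 it was at 4982, 4345 and 4218 CPM. The groups lay far apart, with WT 221-fold above CLIP (log2 difference 7.79, SE 0.15, adjusted p = 3.64e-33). With siNT, CLIP held 111, 97.2 and 109 CPM, so the siRNA left 19.3% of the endogenous level in CLIP. The WT line with siUPF1 was 42.7 times above the CLIP level with siNT. Transgene and endogenous reads fell on the same row of the table, so the endogenous share in WT cannot be told apart. An exact permutation test on the 3 against 3 libraries, two-sided, gave p = 0.1, the smallest it can give.

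Across the 16697 genes tested, 910 were higher in WT (5.45%) and 1437 were lower (8.61%), 14.1% in either direction, by edgeR's quasi-likelihood test at an adjusted p under 0.05. At least 1.5-fold differences were held by 301 genes higher (1.80%) and 773 lower (4.63%), and at least 2-fold differences by 91 and 273. The median log2 difference was 0.46 among the higher genes, −0.61 among the lower ones and 0.03 over all genes tested. The genes lower in WT thus had the larger differences, and most of them lay between 1-fold and 2-fold. With the replicate number as a block the counts were 2049 higher and 2187 lower, and they included all 910 and all 1437 genes called without it. Same-numbered libraries were paired in the data, and the fit without the block, which gave every call unless another is named, ignored that pairing. The count of higher genes was 487 without replicate 3 of CLIP with siUPF1, and 385 when only these 6 libraries entered the fit, while the lower genes then numbered 1159 and 1036.

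**Figure D1:**
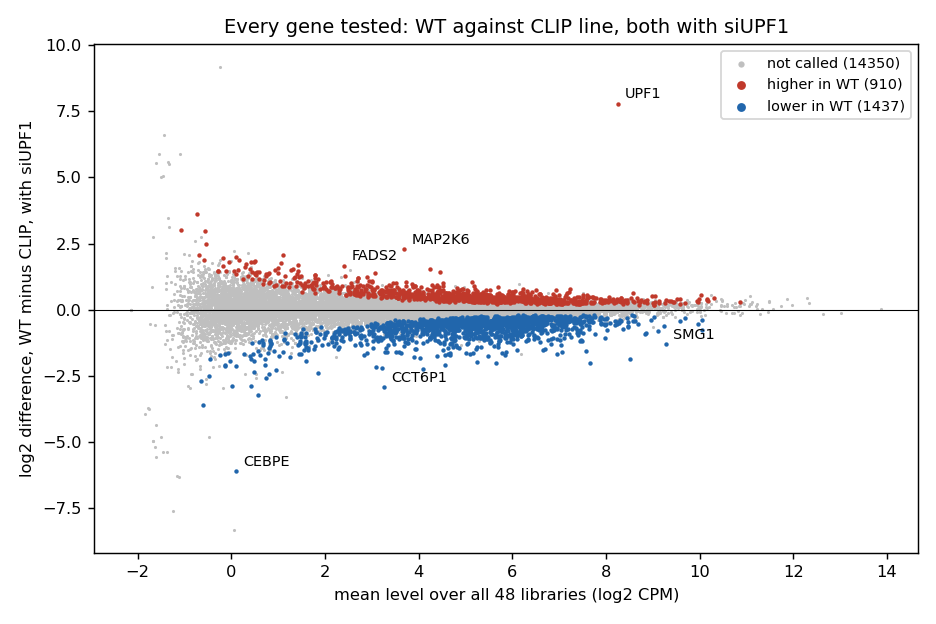
Log2 difference of WT minus CLIP, both with siUPF1 (vertical axis), against the mean level over the 6 libraries compared in log2 CPM (horizontal axis), 1 point per gene tested. The printed label of the horizontal axis says 48 libraries, but the mean is over these 6. Red points are the 910 genes higher in WT and blue points the 1437 lower, grey points did not pass; UPF1 stands alone at 7.79.

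Many of the genes most raised in WT after UPF1 were at a few CPM or less. MAP2K6, a kinase that activates p38 MAP kinases, was at 7.02, 4.96 and 5.44 CPM in CLIP and at 23.8, 29.1 and 30.9 CPM in WT (4.83-fold, log2 2.27, SE 0.19, adjusted p = 1.38e-11). All WT libraries lay above all CLIP libraries, and all lay below the siNT libraries of both lines, which held 36.6 to 49.0 CPM. FADS2, a fatty acid desaturase, was at 2.94, 2.85 and 2.95 CPM in CLIP and at 9.08, 6.11 and 12.1 CPM in WT (log2 1.66, SE 0.35, adjusted p = 0.00077). Its WT level was above that of CLIP in every library and far below the 27.2 to 49.5 CPM of the siNT libraries. KLHL41, a sarcomere-associated kelch protein, was at 0.905, 0.735 and 1.13 CPM in CLIP and at 3.52, 3.29 and 4.84 CPM in WT (log2 2.08, adjusted p = 9.94e-05). NCALD, a neuronal calcium sensor, was at 0.340, 0.735 and 0.793 CPM in CLIP and at 1.63, 2.51 and 2.66 CPM in WT (log2 1.83, adjusted p = 0.000216). GPR85, an orphan G-protein-coupled receptor, was at 0.340, 0.459 and 1.13 CPM in CLIP and at 1.90, 2.19 and 2.54 CPM in WT (log2 1.78, adjusted p = 0.000404). None of these 3 had overlapping groups.

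NEFM, a neurofilament subunit that 293 cells express, was at 0.566, 0.551 and 0.680 CPM in CLIP and at 2.44, 1.10 and 2.66 CPM in WT (log2 1.79, adjusted p = 0.0111). COL3A1, a fibrillar collagen among the fibroblast markers, was at 1.02, 1.10 and 1.02 CPM in CLIP and at 3.25, 1.72 and 5.57 CPM in WT (log2 1.76, adjusted p = 0.00355). Its rise was part of the higher fibroblast marker sum, and what that sum contributed to the comparison was not tested. TENM1, a teneurin, was at 1.36, 0.919 and 1.93 CPM in CLIP and at 3.52, 3.45 and 6.42 CPM in WT (log2 1.69, adjusted p = 0.0249). With siNT, TENM1 was at 0.133, 0.177 and 0.355 CPM in CLIP against 1.48, 1.25 and 3.42 CPM in WT. The siNT difference did not pass (log2 3.08, adjusted p = 0.927). METTL7A (log2 1.55), SRPX (1.52), PLEKHB1 (1.502), the interferon-induced IFIT1 (1.496) and the antigen-presentation gene HLA-DMB (1.44) completed the largest increases, with NCKAP1L at 1.58. Without replicate 3 of WT with siUPF1, the calls of NEFM, COL3A1, TENM1 and NCKAP1L were lost (adjusted p = 0.0671, 0.0856, 0.157 and 0.445). TENM1 and NCKAP1L also lost theirs without replicate 1 of CLIP (0.0706 and 0.159) or replicate 2 of CLIP (0.120 and 0.0800), and NCKAP1L when only the 6 libraries were fitted (0.0681).

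Several pseudogenes were among the 15 genes with the largest decreases in WT. CCT6P1, a transcribed copy of the chaperonin subunit gene CCT6A, was at 16.3, 32.8 and 29.8 CPM in CLIP and at 2.85, 3.91 and 3.51 CPM in WT (CLIP 7.69-fold above WT, log2 −2.94, SE 0.21, adjusted p = 1.05e-13). With siNT both lines held 2.12 to 3.75 CPM, a range that took in 2 of the 3 WT libraries and lay just under the other. Its parent CCT6A, chosen after values were seen, was at 242 to 297 CPM in CLIP and 271 to 352 CPM in WT and did not pass (log2 0.22, adjusted p = 0.492). RP9P, a copy of the splicing-related gene RP9, was at 35.6, 35.3 and 40.4 CPM in CLIP and at 7.99, 6.58 and 8.48 CPM in WT (log2 −2.26, SE 0.17, adjusted p = 8.89e-13). RP9 was at 33.2, 35.9 and 36.9 CPM in CLIP and at 21.1, 21.6 and 20.1 CPM in WT, a smaller log2 difference of −0.76 (adjusted p = 5.89e-05). CCT6P3 (−2.23) and WASH7P (−2.16) were lower in the same way, and the WASH7P parent family member WASHC1 differed by −1.16. ASNSP1, a copy of asparagine synthetase ASNS, was at 6.45, 7.44 and 10.1 CPM in CLIP and at 1.08, 1.10 and 2.18 CPM in WT (log2 −2.42, adjusted p = 0.00449), while ASNS did not pass (−0.27, adjusted p = 0.690). Copy and parent share sequence, and reads can be assigned to the wrong member of a pair, so these values are uncertain.

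The other largest decreases were in transcripts of a few CPM. CEBPE, a transcription factor of granulocyte maturation, was at 4.30, 5.14 and 2.95 CPM in CLIP and at 0, 0.157 and 0 CPM in WT. Over the groups this was 120 counts against 1, a ratio of 92.6 with an exact 95% interval of 16.3 to 3686 for counting error. CEBPE was as far apart with siNT, with 177 counts in CLIP and 0 in WT (at least 44.7-fold, with 3 counts over the group as the floor), so it separated the lines under either siRNA. AC243919.1, a noncoding transcript, was at 2.60, 3.49 and 4.76 CPM in CLIP and at 0.542, 1.25 and 0.242 CPM in WT (log2 −2.46, adjusted p = 2.18e-05). BMP2, a growth factor, differed by −2.11 (adjusted p = 0.00220). AC002116.1, another noncoding transcript, was at 4.75, 2.85 and 4.53 CPM in CLIP and at 0.948, 0.313 and 0 CPM in WT (log2 −3.25, adjusted p = 0.00986). AC073585.2 was at 2.83, 1.93 and 4.87 CPM in CLIP and at 0.677, 0.626 and 0 CPM in WT (−2.90), and the readthrough gene SYS1-DBNDD2 at 2.83, 1.38 and 2.15 CPM against 0, 0.470 and 0.363 CPM (−2.88). AL049650.1 was at 3.17, 3.03 and 5.66 CPM in CLIP and at 0, 0.940 and 0.969 CPM in WT (−2.61). AL133352.1 (−2.35), NPIPA8 (−2.29) and the stathmin STMN4 (−2.12) closed the list. Groups without overlap were again a condition for naming these genes, and 14.2% of all genes tested met it in this direction. The calls of AC002116.1, AC073585.2, SYS1-DBNDD2, AL049650.1, AL133352.1, NPIPA8 and STMN4 were each lost when 1 of the 6 libraries was left out. Their adjusted p reached 0.0730, 0.171, 0.121, 0.165, 0.0511, 0.189 and 0.203. These largest values came without replicate 3 of WT for AC002116.1, AC073585.2 and NPIPA8. They came without replicate 1 of WT for SYS1-DBNDD2 and AL049650.1, and without replicate 1 of CLIP for AL133352.1 and STMN4. AC002116.1 and AL133352.1 lost their calls in that fit only. The call of AL049650.1 was lost whichever of the 6 libraries was left out. Those of AC073585.2, SYS1-DBNDD2, NPIPA8 and STMN4 were lost in several of these fits.

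**Figure D2:**
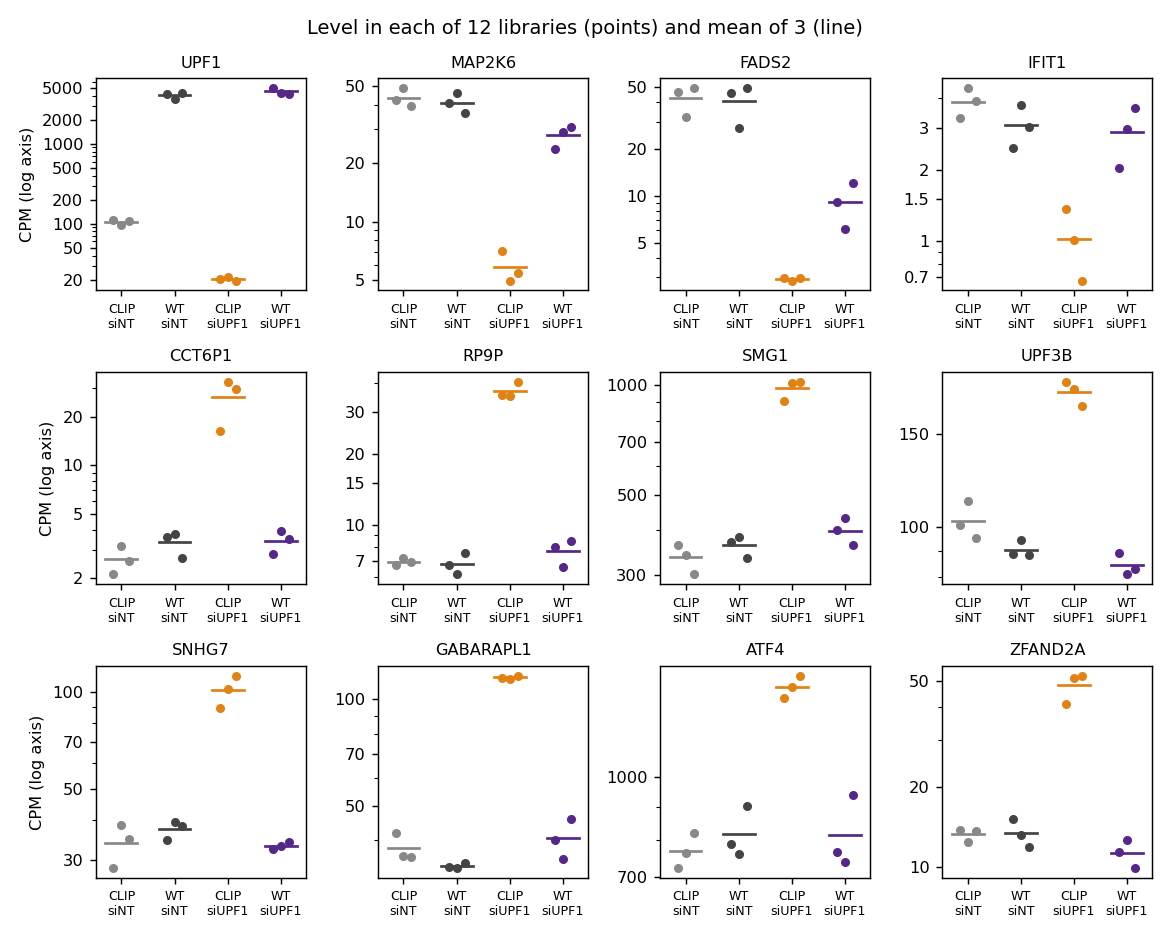
Level in CPM on a log axis in each of the 12 libraries of the CLIP and WT lines (points; line, mean of 3) for UPF1, 3 genes higher in WT and 8 lower. For CCT6P1, RP9P, SMG1 and SNHG7 the CLIP libraries with siUPF1 stand above all other libraries.

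By annotated type, 876 of the 13306 protein-coding genes tested were higher and 1235 lower (6.58% and 9.28%). Of 1191 pseudogenes, 4 were higher and 108 lower, 0.336% and 9.07%, beside 5.45% and 8.61% of all genes. Of 1814 long noncoding RNAs, 27 were higher and 85 lower. Pseudogenes as a class therefore had a lower share of increases, at a median level far under that of coding genes (log2 CPM 0.94 against 4.94). Their share of decreases was near that of all genes when no fold threshold was set. Long noncoding RNAs, at a like median level (0.98), had 4.69% lower. At least 1.5-fold decreases were held by 93 of the 1191 pseudogenes, beside 773 of all 16697 genes (4.63%). Among the coding genes, 42.7% of all tested had an annotated transcript of the NMD biotype, against 56.2% of those lower in WT and 35.0% of those higher. At a mean of at least 32 CPM the shares were 46.6%, 59.0% and 36.8%. The lower genes also had more annotated transcripts, a median of 9 against 7 over all coding genes and 7 among the higher ones. What this adds to their share was not tested. Among genes lower at least 1.5-fold, with a median of 7 transcripts, the share with the NMD biotype was 51.9%. A splice junction more than 50 bases after the stop codon in an annotated coding transcript, the arrangement that marks a stop as early, was present for 3.29% of all coding genes, 5.31% of the lower and 2.05% of the higher ones. The median 3′UTR was 775.5 bases over all coding genes, 883.5 among the lower and 1081.5 among the higher ones.

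NMD factors were the first group named by their role. The counts for this and each later list stand beside the 5.45% of all genes tested that were higher in WT and the 8.61% that were lower. Of 20 tested (UPF1 not among them), 8 were lower in WT, 1 was higher and 11 did not pass, with a median log2 difference of −0.08 beside 0.03 over all genes. SMG1, the kinase that phosphorylates UPF1, was at 908, 1014 and 1023 CPM in CLIP and at 400.3, 429.5 and 363 CPM in WT (CLIP 2.47-fold above WT, log2 −1.30, SE 0.09, adjusted p = 3.87e-14). The groups did not overlap, and the siNT libraries held 301 to 382 CPM. UPF3B, the bridge to the exon junction complex, was at 189, 183 and 169.8 CPM in CLIP and at 88.9, 81.1 and 83.2 CPM in WT (log2 −1.10, SE 0.11, adjusted p = 9.79e-10). SMG9 (−1.09) and SMG5 (−1.08), a regulator of SMG1 and a decay factor, were lower to a like extent, followed by the endonuclease SMG6 (−0.95), UPF2 (−0.64) and UPF3A (−0.34). The termination factor GSPT1 was the member that was higher (0.26, adjusted p = 0.0232; 3 higher with the block and 0 without replicate 2 of WT or replicates 1 or 3 of CLIP). RUVBL1, RUVBL2, SMG8, NBAS and DHX34 did not pass, at 0.20, −0.07, 0.03, 0.01 and −0.42.

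SMG1 has pseudogene copies on chromosome 16 that share its sequence, here named after values were seen. SMG1P2 (log2 −1.63, adjusted p = 0.000478) and SMG1P5 (−0.99, adjusted p = 2.88e-05) were lower in WT. SMG1P3 (−0.47) and SMG1P4 (−0.72) passed with adjusted p of 0.0350 and 0.0472, but not with only the 6 libraries (0.0799 and 0.0663). With a library left out, SMG1P3 kept its call only without replicate 2 of WT or replicate 1 of CLIP. SMG1P4 then kept its call only without replicate 2 of WT. The largest values came without replicate 3 of WT (0.215 and 0.249). SMG1P1, SMG1P6 and SMG1P7 did not pass, at −0.32, −0.07 and 0.16. How reads were divided between SMG1 and these copies was not tested.

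Of 14 exon junction complex genes, 2 were lower and none was higher (median 0.07), beside 8.61% of all genes lower: UPF3B and the helicase DDX39B (−0.24, adjusted p = 0.00493). DDX39B no longer passed without replicate 3 of WT (0.0879), with only the 6 libraries (0.145) or with no filter on low counts (0.146). The core subunit RBM8A was at −0.37 and the export adaptor ALYREF at 0.35, and they passed with the replicate block (adjusted p = 0.000143 and 0.0399 against 0.0707 and 0.157 without it). RBM8A also passed with only the 6 libraries (0.0341), with library totals (0.0334) and with no filter on low counts (0.00748).

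Of 48 genes known as NMD targets, 25 were lower, none was higher and 23 did not pass, with a median of −0.50 beside 0.03 over all genes. The list was chosen with results of these libraries in view and is not independent evidence of its direction. With the block 29 were lower and 5 higher. GABARAPL1, an ATG8 protein of autophagy, was at 115, 114 and 117 CPM in CLIP and at 40.0, 35.2 and 45.9 CPM in WT (log2 −1.51, SE 0.14, adjusted p = 7.89e-11). RASSF1, a Ras-associated tumour suppressor, was at 40.2, 44.7 and 51.1 CPM in CLIP and at 17.8, 14.7 and 10.8 CPM in WT (log2 −1.66, SE 0.15, adjusted p = 1.16e-10). For both genes the WT libraries overlapped the siNT libraries, which held 33.2 to 41.9 CPM of GABARAPL1 and 11.8 to 16.7 CPM of RASSF1, and the CLIP libraries lay above them. Further members that were lower included the secreted glycoprotein STC2 (−2.02), the snoRNA host ZFAS1 (−1.63), NAT9 (−1.11), the uridine phosphorylase UPP1 (−1.08), the co-chaperone BAG1 (−0.92) and TBL2 (−0.75). Members at the other end did not pass, such as SNHG16 (0.34), SRSF2 (0.27), RPL12 (0.23) and the poison-exon genes SRSF3 (0.09) and SRSF7 (0.09).

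Host genes of snoRNAs, a list of noncoding and coding hosts, gave 16 lower of 34 tested and none higher (median −0.36), beside 8.61% of all genes lower. The spliced exons of the noncoding hosts are translated briefly and then decay. SNHG7 was at 89.0, 102 and 112 CPM in CLIP and at 32.5, 33.2 and 34.3 CPM in WT (CLIP 3.04-fold above WT, log2 −1.60, SE 0.10, adjusted p = 1.58e-14). The WT libraries fell within the 28.4 to 39.4 CPM of the siNT libraries. C6orf48 (−2.03), EPB41L4A-AS1 (−1.72), ZFAS1 (−1.63), SNHG8 (−1.44), SNHG6 (−1.40) and SNHG5 (−1.29) were lower by more than GAS5 (−0.93) and SNHG1 (−0.98). SNHG12 (−0.40), SNHG16 (0.34), SNHG19 (0.75) and the coding hosts NCL (0.30) and HSPA8 (0.57) did not pass. With the block 17 were lower and 5 higher.

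Among 40 SR proteins and other splicing regulators, 6 were lower and 3 higher (median 0.09). RBM39, an SR-related splicing factor, was at 646, 773 and 773 CPM in CLIP and at 422, 449 and 387 CPM in WT (log2 −0.80, SE 0.08, adjusted p = 3.05e-09). HNRNPH3 (−0.90), LUC7L (−0.79), SRSF10 (−0.74), TRA2A (−0.69) and TRA2B (−0.64) were the others lower, and HNRNPK (0.31), HNRNPA1 (0.27) and HNRNPR (0.27) were higher. The 3 increases numbered 13 with the block, 1 without replicate 2 of WT or replicate 1 of CLIP, and 0 without replicate 3 of CLIP, while the decreases numbered 6 or 7 in every fit run. None of the 10 CLK and related kinases passed: DYRK2, the member with the smallest p, was at 103, 99.1 and 105 CPM in CLIP and 107, 118 and 113 CPM in WT (0.14, adjusted p = 0.239). CLK1 was at −0.25, CLK4 at −0.19 and PRPF4B at 0.20, the last with an adjusted p of 0.0173 under the block.

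**Figure D3:**
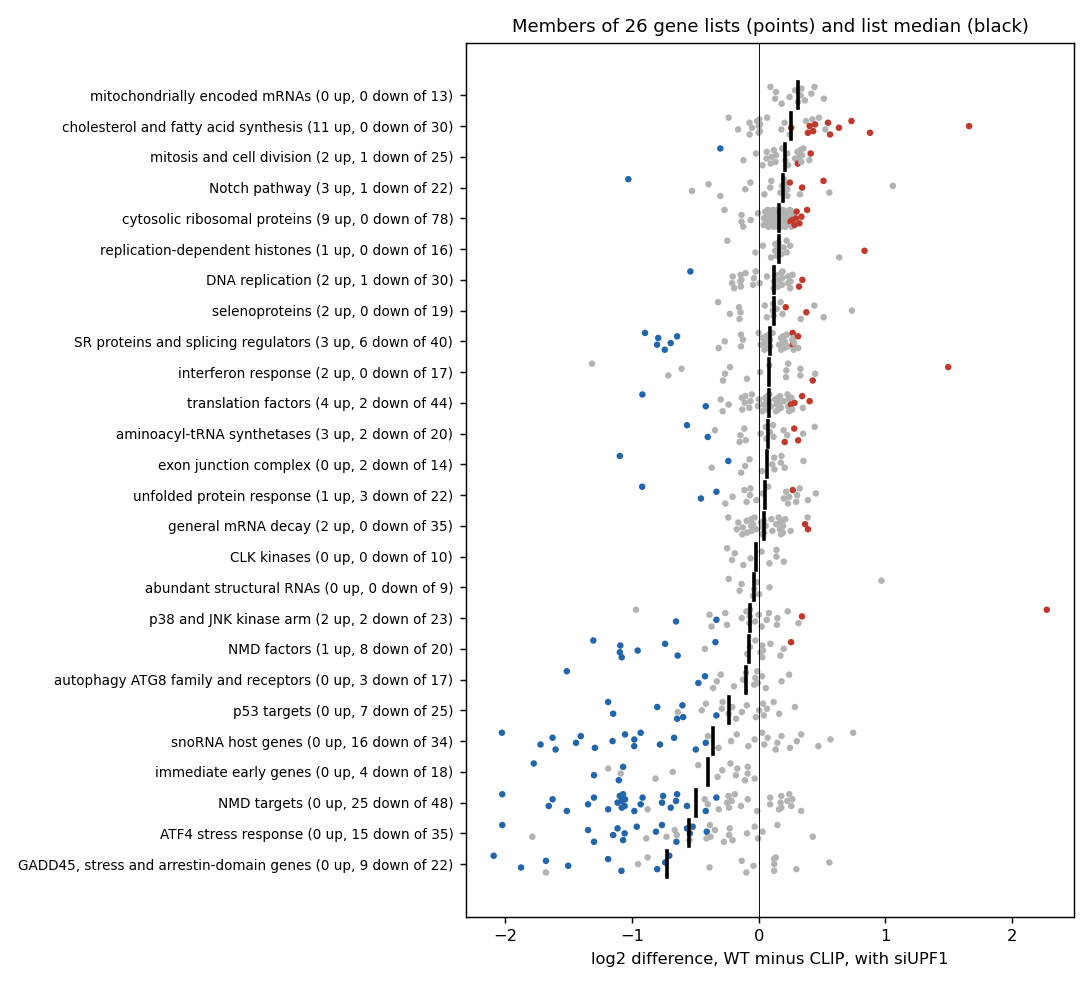
Log2 difference of WT minus CLIP with siUPF1 (horizontal axis) for each member of 26 gene lists, red where higher and blue where lower at an adjusted p under 0.05, grey otherwise; black bars are list medians. The lists of stress, ATF4 and NMD target genes have medians of −0.72, −0.55 and −0.50, and 11 cholesterol and fatty acid genes are red with none blue.

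Of 35 genes of the ATF4 programme, which raises amino acid transport and synthesis when translation is stressed, 15 were lower in WT, none was higher and 20 did not pass (median −0.55), beside 8.61% of all genes lower. ATF4 itself was at 1329, 1381 and 1437 CPM in CLIP and at 766, 740.1 and 938 CPM in WT (log2 −0.76, SE 0.11, adjusted p = 1.97e-06). With siNT both lines held 723 to 904 CPM of ATF4, which took in 2 of the 3 WT libraries and none of the CLIP libraries. SLC7A5, a transporter of large neutral amino acids, was at 232, 219 and 257 CPM in CLIP and at 127, 106 and 129.6 CPM in WT (log2 −0.96, SE 0.13, adjusted p = 7.02e-07). Those WT levels stayed above all siNT libraries, which held 67.4 to 98.8 CPM. STC2 was at 366, 397 and 487 CPM in CLIP and at 84.8, 80.8 and 141 CPM in WT (log2 −2.02, SE 0.34, adjusted p = 3.76e-05). The transcription factors ATF3 (−1.30), DDIT3 (−1.07) and CEBPG (−0.52), the phosphatase subunit PPP1R15A (−1.35), the cystine transporter SLC7A11 (−1.06) and the tRNA synthetase CARS (−0.57) were also lower. Several of these are NMD targets themselves and stand in both lists. Biosynthetic enzymes of the programme did not pass: ASNS (−0.27), PHGDH (0.15), PSAT1 (−0.03), PSPH (−0.23), SHMT2 (−0.38) and MTHFD2 (−0.34).

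ATF4 pairs with C/EBP proteins on the core TGATGNAA. Of the 29 list members with a promoter in the RefSeq table (GRCh38.p14; 250 bases before the gene start to 50 after), 6 held this core on either strand in the 250 bases before the start, 20.7%, against 3.89% of all 27305 promoters of the table. They comprised 2 of 14 members lower in WT and 4 of 15 that did not pass. Among all tested genes with a promoter in the table, 2.30% held the core. The share was 1.71% of the genes lower in WT and 4.03% of those higher. The 60 bases around the core follow for the 2 lower genes and for 2 that did not pass, so that the sites can be compared; each is read 5′ to 3′ along the gene, and capitals mark the core (TTNCATCA where it lies on the opposite strand).
ATF3 (chr1:212565190-212565249, plus strand, lower): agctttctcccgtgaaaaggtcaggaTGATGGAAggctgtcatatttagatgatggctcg
CEBPG (chr19:33374045-33374104, plus strand, lower): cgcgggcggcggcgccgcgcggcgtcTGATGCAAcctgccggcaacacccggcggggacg
CHAC1 (chr15:40953236-40953295, plus strand, not passing): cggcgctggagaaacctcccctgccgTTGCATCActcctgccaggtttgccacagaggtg
ASNS (chr7:97872443-97872502, minus strand, not passing): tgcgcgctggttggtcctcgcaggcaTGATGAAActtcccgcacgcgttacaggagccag
CHAC1 was at −0.73 (adjusted p = 0.0990) and ASNS at −0.27 in WT against CLIP, so a core in the promoter occurred beside decreases that passed and beside differences that did not.

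Of 20 cytosolic tRNA synthetases, 2 were lower and 3 higher (median 0.07). CARS was at 87.6, 84.6 and 77.9 CPM in CLIP and at 60.02, 50.1 and 58.7 CPM in WT (adjusted p = 0.000152), and YARS differed by −0.40. EPRS (0.31) and NARS (0.28) lost their calls without replicate 1 of CLIP (adjusted p = 0.104 and 0.0996) and when only the 6 libraries were fitted (0.142 and 0.134). NARS also lost its call without replicate 2 of WT (0.0705). Of 22 genes of the unfolded protein response, 3 were lower and 1 higher (median 0.05; 6 higher with the block). EDEM1, which feeds misfolded glycoproteins to degradation, was at 63.4, 55.0 and 59.4 CPM in CLIP and at 47.4, 43.4 and 38.9 CPM in WT (log2 −0.46, adjusted p = 0.00383). The stress sensor ERN1 differed by −0.92 (adjusted p = 0.00636) and ATF6, another sensor, by −0.33 (0.00959). ATF6 lost its call without replicate 1 of WT (0.0677) and with only the 6 libraries (0.0808). The chaperone PDIA4 (0.27) lost its call without replicate 1 of WT (0.0826), replicate 1 of CLIP (0.122) or replicate 3 of CLIP (0.0982). PDIA4 also lost it with only the 6 libraries (0.121) and with no filter on low counts (0.268).

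Growth-arrest and stress genes with GADD45, TSC22 and arrestin domains had the lowest median of the 26 lists, −0.72, with 9 lower of 22 and none higher. ZFAND2A, a zinc finger protein induced by arsenite and heat, was at 40.9, 51.2 and 52.2 CPM in CLIP and at 11.4, 12.7 and 9.93 CPM in WT (CLIP 4.26-fold above WT, log2 −2.09, SE 0.14, adjusted p = 4.06e-14). With siNT both lines held 11.9 to 15.1 CPM, so 1 WT library lay within that range and 2 below it, with all CLIP libraries above. TSC22D3 (−1.87, adjusted p = 0.0148), GADD45G (−1.68), the thioredoxin inhibitor TXNIP (−1.502), GADD45A (−1.19), KLF6 (−1.08) and ARRDC3 (−0.80) were also lower. GADD45B (−0.88, adjusted p = 0.0851) and ARRDC4 (−1.68, adjusted p = 0.0562) did not pass.

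Of 25 p53 targets, 7 were lower and none higher (median −0.24; 11 lower with the block and 3 with only the 6 libraries), beside 8.61% of all genes lower. The exonuclease gene AEN was at 158, 133 and 133 CPM in CLIP and at 106, 93.8 and 79.9 CPM in WT (log2 −0.60, SE 0.09, adjusted p = 5.15e-06). With siNT it was at 119 to 139 CPM, so 2 CLIP libraries lay within that range and 1 above it, and the WT libraries lay below it. GADD45A and SESN2 (−1.15) were lower as well, and PHLDA3 (−0.64) lost its call without replicate 2 of WT (adjusted p = 0.0690) and with only the 6 libraries (0.0511). Of 18 immediate early genes 4 were lower (median −0.40). MAFF, a small MAF factor, was at 4.07, 3.03 and 2.95 CPM in CLIP and at 0.948, 1.57 and 0.484 CPM in WT (log2 −1.77, adjusted p = 0.000745). ATF3, FOSL1 (−1.07) and ARC (−1.10) were the others, ARC with adjusted p of 0.0776, 0.0512 and 0.0840 without replicate 2 of WT, replicate 3 of WT and replicate 1 of CLIP. FOS (−1.09), EGR1 (−0.68), JUN (−0.29) and MYC (−0.18) did not pass.

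In the autophagy list 3 of 17 were lower (median −0.10; 5 with the block): GABARAPL1, the ATG8 protein MAP1LC3B (−0.48, adjusted p = 0.00302) and BECN1 (−0.42, adjusted p = 0.0168). BECN1 lost its call without replicate 1 of WT (0.0602), replicate 2 of CLIP (0.0749) or replicate 3 of CLIP (0.0641). ATG13 was at −0.36 and passed with the block (adjusted p = 0.0264 against 0.0741) and with library totals (0.0442). In the p38 and JNK list 2 of 23 were higher and 2 lower (median −0.07; 6 lower with the block). MAP2K6 led the increases, and MAPKAPK5, a kinase downstream of p38, was at 157, 152 and 158 CPM in CLIP against 124, 120.0 and 127 CPM in WT (log2 −0.33, adjusted p = 0.000373). MAP3K14 was lower (−0.65), and MAP3K5 (0.34, adjusted p = 0.0325) lost its call without any of 5 libraries, with adjusted p up to 0.151 without replicate 3 of CLIP.

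Lipid synthesis was the list with the most increases for its size: 11 of 30 genes were higher and none lower (median 0.25), beside 5.45% of all genes higher. ACLY, which makes cytosolic acetyl-CoA, was at 343, 351 and 350.2 CPM in CLIP and at 522, 459.6 and 440.1 CPM in WT (1.36-fold, log2 0.45, SE 0.09, adjusted p = 0.000309). MSMO1, a sterol demethylase, was at 10.9, 11.03 and 11.1 CPM in CLIP and at 20.2, 19.9 and 20.6 CPM in WT (log2 0.88, SE 0.18, adjusted p = 0.000385). In neither gene did the groups overlap. TM7SF2 (0.73), IDI1 (0.63), SQLE (0.55), HMGCS1 (0.43), NSDHL (0.40) and FDFT1 (0.39) were higher, as was FADS2. The count was 7 without replicate 1 of WT, and 6, 5 and 6 without replicates 1, 2 and 3 of CLIP.

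Ribosomal protein genes differed by little. Of 78 tested, 9 were higher and none lower, with a median of 0.16 and 6 members below 0. RPS26 was at 207, 198 and 207 CPM in CLIP and at 259, 284 and 254 CPM in WT (1.30-fold, log2 0.38, SE 0.08, adjusted p = 0.000531). RPS23 (0.34), RPSA (0.29) and RPL6 (0.28) were higher too, but not with only the 6 libraries (adjusted p = 0.110, 0.0853 and 0.104), and RPS23 and RPSA not without replicate 1 or replicate 3 of CLIP, in that order (0.0604 and 0.108). The count was 26 with the block and 1 with only the 6 libraries. It was 15 without replicate 1 of WT, 5 without replicate 2 of CLIP and 3 without replicate 3 of CLIP. Of 44 translation factors 4 were higher and 2 lower (median 0.08; 13 higher and 4 lower with the block). EIF5, a GTPase activator of initiation, was at 552, 714 and 622 CPM in CLIP and at 306, 377 and 317 CPM in WT (log2 −0.92, SE 0.11, adjusted p = 1.00e-07). EIF4A2 was lower (−0.42), though not with only the 6 libraries (0.0725). EIF3A (0.40), EIF2B3 (0.34) and PABPC1 (0.28) were higher, and EIF3A and EIF2B3 lost their calls without replicate 3 of CLIP (0.111 and 0.0618) and without replicate 1 or replicate 3 of WT (0.130 and 0.0607). EIF2B3 also lost its call without replicate 1 of CLIP (0.0648).

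The remaining lists had few calls. General mRNA decay had 2 of 35 higher (7 with the block), TOB1 (35.0, 47.3 and 39.8 CPM in CLIP; 52.4, 59.2 and 46.3 CPM in WT; log2 0.37, adjusted p = 0.00362) and TOB2 (0.39), adaptors of the CCR4-NOT deadenylase. The TOB1 groups overlapped, and its call was lost without replicate 2 of WT (0.0694) or replicate 1 of CLIP (0.0806). That of TOB2 was lost without replicate 1 of WT (0.296), replicate 2 of CLIP (0.0734) or replicate 3 of CLIP (0.189). Neither passed with only the 6 libraries (0.145 and 0.160) or with no filter on low counts (0.140 and 0.0517). XRN2 (0.25) passed with the block (0.00283 against 0.0778), with a minimum count of 50 (0.0447) and without replicate 2 of CLIP (0.0264). PARN was at −0.16 and passed only without replicate 1 of CLIP (0.0323). Of 19 selenoprotein genes 2 were higher (4 with the block), GPX4 (244, 222 and 208 CPM in CLIP against 323, 290.3 and 261 CPM in WT, log2 0.38) and SEPHS2 (0.21). GPX4 lost its call without replicate 1 of WT (0.123), replicate 2 of CLIP (0.0638) or replicate 3 of CLIP (0.133). Among the fits with a library left out, SEPHS2 kept its call only without replicate 3 of WT (elsewhere up to 0.149). SEPHS2 also lost its call with only the 6 libraries (0.214) and with no filter on low counts (0.610). SELENOP, at 0.74, passed with the block (0.0261 against 0.118). The single histone gene of 16 that was higher was HIST1H1D, at 39.7, 39.2 and 36.2 CPM in CLIP and 70.5, 74.4 and 61.0 CPM in WT (log2 0.84, adjusted p = 0.0282), which failed in 5 of the 6 fits with a library left out (up to 0.109 without replicate 3 of CLIP).

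Of 25 mitosis genes 2 were higher and 1 lower (median 0.21; 12 higher with the block). KIF20A, a kinesin of cytokinesis, was at 86.6, 89.7 and 81.6 CPM in CLIP and at 125, 114 and 104 CPM in WT (log2 0.41, adjusted p = 0.00500; 0.0564 without replicate 1 of WT). TOP2A was at 0.31 (adjusted p = 0.00502), but did not pass without replicate 3 of CLIP (0.0796) or with only the 6 libraries (0.0749). KIF2C was at −0.30 (0.0155). With a library left out, it kept its call only without replicate 1 of WT or replicate 3 of CLIP (elsewhere up to 0.0940). CDK1 was at 0.33 (0.0592). It passed with the block (0.00688), with a minimum count of 50 (0.0444), and without replicate 1 of WT (0.0192) or replicate 2 of CLIP (0.0225). Of 30 DNA replication genes 1 was lower and 2 higher (median 0.12; 5 higher and 3 lower with the block). RFC2, a clamp loader subunit, was at 63.1, 72.0 and 69.4 CPM in CLIP and at 45.9, 49.8 and 45.3 CPM in WT (log2 −0.54, SE 0.08, adjusted p = 9.14e-06). MCM4 (0.35) and MCM6 (0.32) were higher, but not with only the 6 libraries (0.0524 and 0.0747) or with no filter on low counts (0.0590 and 0.149). With a library left out, MCM6 kept its call only without replicate 3 of WT or replicate 2 of CLIP (elsewhere up to 0.0912).

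Of 17 interferon response genes 2 were higher (median 0.08). IFIT1 was at 1.36, 1.01 and 0.680 CPM in CLIP and at 2.03, 2.98 and 3.63 CPM in WT, and with siNT at 2.46 to 4.43 CPM. PARP9 (0.43, adjusted p = 0.0187) kept its call without replicate 2 of WT or replicate 1 of CLIP. The call was lost without each other library (up to 0.0890), with only the 6 libraries (0.0943) and with no filter on low counts (0.183). MX1 (−1.31) and ISG15 (−0.61) pointed the other way and passed with the block (adjusted p = 0.00135 and 0.00389 against 0.0641 and 0.136). Both also passed with no filter on low counts (0.0186 and 0.0433). MX1 passed as well with only the 6 libraries (0.0376), without replicate 1 of WT (0.0474) and by DESeq2 (DESeq2 adjusted p = 0.0466). Of 22 Notch pathway genes 3 were higher and 1 lower (median 0.19; 3 lower with the block). MAML2, a Notch coactivator, was at 12.6, 11.03 and 13.5 CPM in CLIP and at 16.4, 17.5 and 18.8 CPM in WT (log2 0.51, adjusted p = 0.00685; 0.0628 without replicate 2 of CLIP). The ligand DLL4 was lower (−1.03, adjusted p = 0.00826). NOTCH2 (0.34) lost its call without replicate 1 of WT (0.117) or replicate 3 of CLIP (0.103), and with no filter on low counts (0.0700). Among the fits with a library left out, RBPJ (0.25) kept its call only without replicate 1 of WT or replicate 2 of CLIP (elsewhere up to 0.292). RBPJ also lost its call with library totals (0.0872), with median-of-ratios factors (0.0588) and with no filter (0.482). When only the 6 libraries were fitted, no member was called higher in the lists of NMD factors, splicing regulators, tRNA synthetases, the unfolded protein response, translation factors, general mRNA decay, DNA replication or the Notch pathway.

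No mitochondrially encoded mRNA passed, although all 13 were above 0 (median 0.31). MT-ND5 was at 3424, 2884 and 3369 CPM in CLIP and at 4533, 4024 and 4360 CPM in WT (log2 0.42, adjusted p = 0.0579). It passed with the block (0.0154), with only the 6 libraries (0.0238), with no filter on low counts (0.00359) and with a minimum count of 50 (0.0469). DESeq2 called it too (DESeq2 adjusted p = 0.0464). With the block 5 of the 13 passed, all higher, and the higher mitochondrial share of the WT libraries given above moves with them; its part was not tested. None of 9 structural RNAs passed. RN7SK varied by library rather than by line, at 1268, 202 and 0.113 CPM in CLIP and 1651, 1227 and 0.484 CPM in WT, so replicate 3 of both lines held almost none. Among the markers of other cell types, the neural genes SYP (−1.09, adjusted p = 0.000484) and STMN3 (−1.24, adjusted p = 0.00223) were lower in WT. The other 3 neural genes tested did not pass: MAP2 (0.63, adjusted p = 0.0736; 0.0294 with the block), NEFH (0.63, adjusted p = 0.593) and RBFOX3 (−0.22, adjusted p = 0.869). STMN3 was at 18.6, 21.7 and 21.4 CPM in CLIP, at 6.10, 6.42 and 13.1 CPM in WT and at 40.6 to 83.4 CPM with siNT.

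With siNT, where endogenous UPF1 is present, the same pair of lines differed in 2 of the 16697 genes (0.0120%). UPF1 was higher (5.26) and CEBPE lower, and 253 genes had an unadjusted p under 0.05. The 253 were a smaller share of the genes tested than 0.05, so this fit was cautious for the pair. Few calls therefore do not show that the lines were alike, and with the block 2 genes were higher and 2 lower. The 6 siNT libraries are other libraries than those above. Of the 910 genes higher with siUPF1, 643 had a positive and 267 a negative difference with siNT (median 0.05), and 27 an unadjusted p under 0.05. Of the 1437 lower genes, 892 had a negative and 545 a positive difference (median −0.03), and 32 an unadjusted p under 0.05. Over all 16697 genes tested, 8657 had a positive and 8032 a negative difference with siNT (median 0.006). The difference between both contrasts, tested as an interaction, was called for 128 genes in the higher direction (0.767%) and 540 in the lower (3.23%). Among the 910 and 1437 genes it was called for 124 and 533. The interaction includes the same 6 libraries that chose these genes, so this overlap is not independent evidence. The 128 fell to 68 without replicate 3 of CLIP with siUPF1, 75 without replicate 2 of WT with siNT, and 81 and 85 without replicates 2 and 3 of CLIP with siNT. With the block the counts were 550 and 1044.

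**Figure D4:**
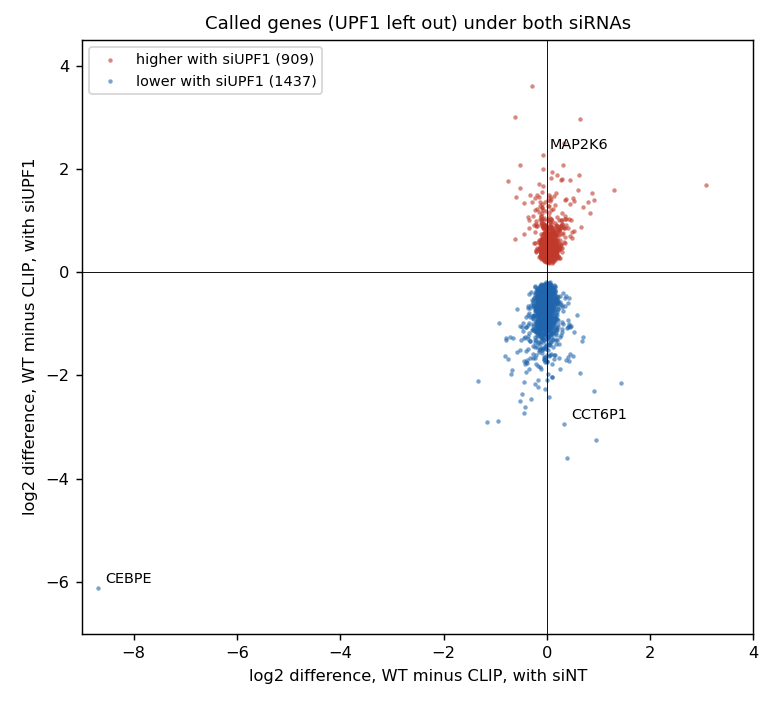
Log2 difference of WT minus CLIP with siUPF1 (vertical axis) against the same difference with siNT (horizontal axis) for the genes called with siUPF1, UPF1 left out. The points stand in a narrow column around 0 on the siNT axis, with CEBPE far below 0 on both axes and TENM1 at 3.08 on the siNT axis.

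By size, the largest interactions were in genes of low level. AQP3, a water channel, was at 0, 0.0919 and 0.113 CPM in CLIP and at 0.813, 1.41 and 0.848 CPM in WT with siUPF1, against 0.821 to 1.78 CPM with siNT in both lines (interaction 3.88, adjusted p = 0.00469). AC012123.1 (3.63), KLHL41 (2.60) and UPF1 (2.53) followed. In the other direction stood AC105233.6 (−7.38), AC104472.3 (−6.94), AC002116.1 (−4.19) and CCT6P1 (−3.27, adjusted p = 2.78e-09). AC105233.6 and AC104472.3 were at most 1.39 CPM in each of the 12 libraries and did not pass in the siUPF1 comparison itself.

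The effect of the siRNA within each line shows where these differences lie, as values side by side, since each uses 3 of the 6 libraries. For SMG1 the log2 change from siNT to siUPF1 was 1.55 in CLIP and 0.14 in WT, for SNHG7 1.57 and −0.17, for ATF4 0.85 and −0.01, and for ZFAND2A 1.86 and −0.24. For SLC7A5 it was 1.53 in CLIP and 0.59 in WT. MAP2K6 changed by −2.92 in CLIP and −0.56 in WT, FADS2 by −3.87 and −2.14. Over the NMD target list the median was 0.60 in CLIP and −0.07 in WT, over the ATF4 list 0.68 and 0.01, over the ribosomal proteins −0.30 and −0.18, and over all genes −0.03 and −0.01. Some genes differed little between lines with siUPF1 despite a large change in both, such as PAQR6, a membrane progestin receptor (2.16 in CLIP, 2.43 in WT; log2 0.13 between lines, adjusted p = 0.832).

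The 6 mutant lines share no library with the comparison, and their knockdowns were set beside it. Of the 1437 genes lower in WT, 1015 rose with siUPF1 in LECY (70.6%, against 15.8% of all genes), 574 in F192E (39.9%, against 11.8%) and 384 in FE-ER (26.7%, against 10.1%). In IR-ER 264 rose (18.4%, against 9.21%), in I757R 221 (15.4%, against 8.13%) and in E797R 133 (9.26%, against 8.34%). In E797R more of these genes fell than rose, 158 (10.995%, against 7.73% of all genes). Of the 910 genes higher in WT, 463 fell in LECY (50.9%, against 13.6%), 287 in F192E (31.5%, against 10.1%) and 213 in FE-ER (23.4%, against 8.52%). In I757R 190 fell (20.9%, against 7.79%), in IR-ER 169 (18.6%, against 7.80%) and in E797R 123 (13.5%, against 7.73%). Here too E797R had more genes in the other direction, with 146 that rose (16.04%, against 8.34%) and a median change of 0.027.

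**Figure D5:**
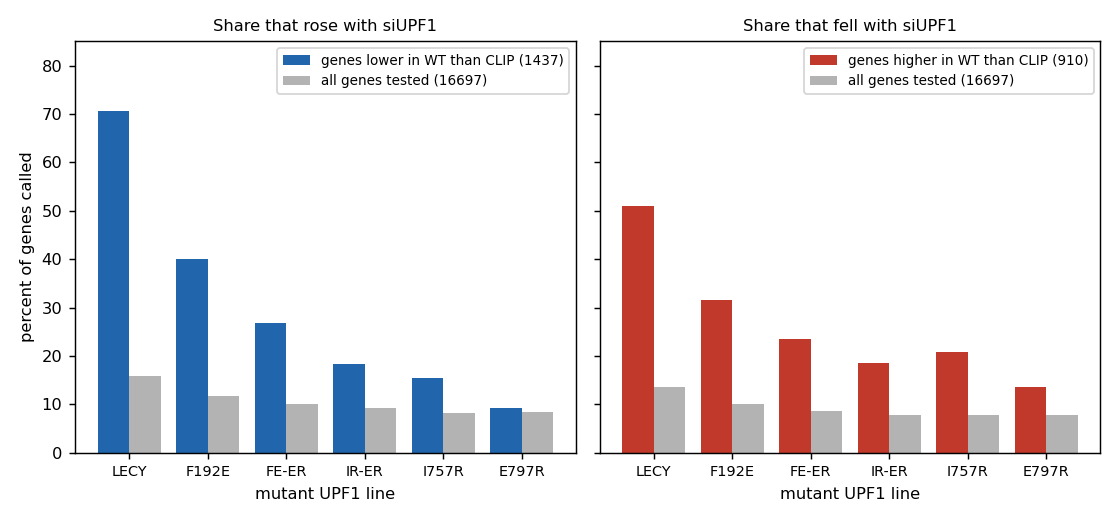
Percent of genes that rose (left) or fell (right) with siUPF1 in each mutant UPF1 line, for the genes lower (blue) or higher (red) in WT than CLIP and for all 16697 genes tested (grey). The coloured bars run from 70.6% in LECY to 9.26% in E797R on the left and from 50.9% to 13.5% on the right.

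Conversely, 656 genes rose with siUPF1 in all 6 mutant lines, and of these 95 were lower in WT than CLIP (14.5%, against 8.61% of all genes) and 29 higher (4.42%, against 5.45%), with a median difference of −0.03. None of the 5 with the largest mean rise passed: MT1X (0.39), AC005077.4 (−0.14), PAQR6, LY6G5C (−0.06) and IGFN1 (0.88). Of the 620 genes that fell in all 6, 113 were higher in WT (18.2%, against 5.45%) and 19 lower (3.06%, against 8.61%), with a median of 0.16. FADS2 and PRDX3 were among them. PRDX3, a mitochondrial peroxiredoxin, was at 8.49, 13.1 and 10.1 CPM in CLIP and at 14.8, 20.98 and 18.0 CPM in WT (log2 0.75, SE 0.18, adjusted p = 0.00245), while the siNT libraries held 90.3 to 110.4 CPM. WT thus exceeded CLIP in every library while both stayed far below the siNT level. CPLX2 (−1.16, adjusted p = 0.188; 0.0403 with the block), TERT (0.46) and MGAT3 (0.57) did not pass.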

How the data were processed

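Total RNA depleted of ribosomal RNA was sequenced in paired ends from 8 lines of Flp-In 293 T-REx cells with 2 siRNAs in 3 replicates, 48 libraries in all. The authors deposited 1 table of expected counts per gene and library; cutadapt, STAR, RSEM, DESeq2 and the build hg38 are named in the submitters' processing notes, with neither order nor version. Which annotation was used and how strand was set are not given in the sources used here, so reads of overlapping and antisense genes cannot be told apart.

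The deposited expected counts (9.16% of values not whole) were rounded to whole numbers. Genes were kept by filterByExpr with a minimum count of 10, which left 16697 of 58870, scaled by TMM, and tested with edgeR 4.0.16 (R 4.3.3, limma 3.58.1; robust quasi-likelihood fit over 16 groups; Benjamini-Hochberg adjustment over all genes tested, calls at 0.05), so every adjusted p is edgeR's unless another tool is named. Levels are CPM with TMM-scaled library sizes, and marker sums use library totals. A difference is WT minus CLIP on the log2 scale. The interaction is the difference with siUPF1 minus that with siNT. Between libraries of 6580995 and 10909098 counts, a gene at 1 CPM rests on few counts, and intervals cover counting error only. The labels call the replicates biological but do not name separate cultures, so p-values measure the spread between these libraries. No replicate pair agreed within sampling noise. The numbers of the replicates pair the libraries in the data, though no shared batch is stated. Deviations from the group means of same-numbered WT and CLIP libraries correlated across genes by 0.179 to 0.239. The main fit did not use this pairing, and the fit with the block did. A gene said not to pass therefore failed in the unpaired fit, and 19 of the 52 named genes not called passed with the block.

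Named genes were UPF1, the 15 largest differences in each direction with a mean of at least 2 CPM in the higher group and no overlap between groups, the 4 members of each list with the smallest p, the 4 largest of the siNT comparison and the interaction per direction, and the 5 largest per direction among genes changed in all 6 mutant lines. Parent genes and copies of pseudogenes and further list members were named as examples after their values were seen. The comparison and the lists were chosen with earlier results of these data known, and the lists share members. Values of 2 list members that enter these counts are not reported here. Gene types and transcripts came from GENCODE 29, matched by Ensembl ID for 16667 genes, and promoters from RefSeq. The fit was also run on data simulated for the 12 libraries of CLIP and WT, with a single dispersion of 0.0144 and no replicate effect. That run cannot show how the fit behaves with the replicate structure of these libraries. The alternatives were DESeq2 1.42.0, other scalings and filters, a replicate block, only the groups compared, and each library left out.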

Additional observations from a re-analysis of the deposited data

Results flagged for a closer look

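These results are listed because WT against CLIP differed between siUPF1 and siNT by the interaction test itself, at an edgeR adjusted p under 0.05. The interaction was called for 128 genes in the higher and 540 genes in the lower direction. Values are log2 interactions, positive where the WT minus CLIP difference was larger with siUPF1.

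Among the genes with the largest differences, the interaction was 2.53 for UPF1, 2.36 for MAP2K6, 2.60 for KLHL41, 1.75 for NCALD, 2.51 for COL3A1, 1.73 for FADS2, 1.64 for METTL7A, 1.69 for PLEKHB1, 1.82 for IFIT1 and 1.68 for HLA-DMB. It was 3.88 for AQP3 and 3.63 for AC012123.1, both near or under 1 CPM. Lipid genes MSMO1 and TM7SF2 had 0.95 and 1.18, RPS26 had 0.39 and TOB1 0.47.

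On the lower side, pseudogenes and their relatives gave −3.27 for CCT6P1, −2.06 for CCT6P3, −2.23 for RP9P, −1.93 for WASH7P, −1.27 for WASHC1, −1.13 for SMG1P5, −0.96 for NPIPA1 and −0.52 for SYS1. The low-level noncoding genes AC002116.1, AC105233.6 and AC104472.3 had −4.19, −7.38 and −6.94. NMD factors gave −1.42 for SMG1, −0.91 for UPF3B and −0.77 for SMG6. NMD targets and snoRNA hosts gave −1.35 for GABARAPL1, −1.88 for RASSF1, −1.04 for SNHG15, −1.74 for SNHG7, −1.70 for EPB41L4A-AS1 and −1.26 for SNHG8. Splicing regulators gave −0.81 for RBM39, −0.89 for HNRNPH3, −0.79 for SRSF10 and −0.80 for LUC7L.

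Stress genes gave −0.95 for SLC7A5, −0.85 for ATF4, −2.13 for STC2, −0.65 for CARS, −0.48 for YARS, −0.55 for EDEM1, −0.52 for AEN, −1.05 for GADD45A, −2.10 for ZFAND2A and −1.03 for KLF6. The remaining values were −1.02 for EIF5, −0.47 for EIF4A2, −0.50 for RFC2 and −0.41 for MAPKAPK5.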

How the results depend on the processing

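With the replicate number as a block, 2049 genes were higher and 2187 lower in WT with siUPF1, 2 and 2 with siNT, and 550 and 1044 in the interaction. In place of the 910 higher genes, 385 were called when only the 6 libraries were fitted and 552 with no filter on low counts; 487 to about 8.0e+02 were called with a library left out, the lowest without replicate 3 of CLIP. The 1437 lower genes numbered 1112 to 1410 with a library left out. Of the calls, 38.8% were in the higher direction, against 32.4% with library totals, 36.7% with median-of-ratios factors, 48.4% with the block, 27.1% with only the 6 libraries and 27.6% with no filter. With siNT, no filter gave 13 higher and 11 lower, DESeq2 2 lower, a minimum count of 50 gave 0 lower, and leaving out a library 1 and 1. The interaction, fitted on its own groups, had 41 higher and 318 lower genes, and 68 to 146 and 418 to 614 with a library left out. UPF1 stayed between 7.71 and 7.84. Of 166 named genes 114 were called; 69 of these passed under every alternative run and 0 reversed, while 28 no longer passed with only the 6 libraries, 21 with no filter, 15 to 23 with a library left out, and 0 with the block or DESeq2. Of the 52 not called, 19 passed with the block, and these, among them CDK1, MX1 and MT-ND5, were the only calls among named genes it changed. Of genes not called, some changed sign with a library left out, over the ranges given: RN7SL2 (−0.27 to 0.028), RMRP (−0.077 to 0.43), COL1A1 (−0.25 to 0.46), MT1X (−0.028 to 0.88), AC005077.4 (−0.72 to 0.28), LY6G5C (−0.43 to 0.23), MGAT3 (−0.40 to 0.97) and SMG1P6 (−0.34 to 0.19). Fewer libraries entered the leave-one-out fits; for the other shifts the cause was not tested.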

Other observations

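RN7SK, the noncoding RNA that holds the elongation factor P-TEFb inactive, was nearly absent from a few libraries of the series. Scaled by library totals it was at 0.113 CPM in replicate 3 of CLIP with siUPF1, 0.514 in replicate 3 of WT with siUPF1, 0.902 in replicate 2 of I757R with siUPF1 and 33.8 in replicate 3 of F192E with siUPF1. All 4 of these libraries had received siUPF1, and the other libraries held 127 to 1568 CPM.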
